A study of Mus musculus with 2 samples.

Results

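Insulin-like growth factor (IGF) signalling was described here through 10 genes, picked by name with earlier results of these data known: the ligand gene Igf1, the receptor genes Igf1r and Insr, and the 7 binding protein genes Igfbp1 to Igfbp7. All 10 were present among the 24354 genes of the deposited table, whose unit is FPKM, the number of fragments scaled to transcript length and to library size. RNA came from 2 cultures of differentiating mouse embryonic stem cells (ESCs), and each condition had 1 library, so no difference has a replicate check and no p-value is given. The control culture (Diff–CONT) came from ESCs of Ino80 2f/2f blastocysts, which carry the floxed Ino80 allele without Cre and which the sample labels call WT. The other culture (Diff–iKO) came from ESCs of Ino80 2f/2f;ROSA26-CreER blastocysts, in which CreER is expressed from the ROSA26 locus. Both were grown as embryoid bodies (EBs), attached at day 4, kept from day 5 in medium with serum, BMP4 and 0.5 µM 4-hydroxytamoxifen (4-OHTM), and grown there for 7 days. Both cultures thus carried the floxed allele and received 4-OHTM, and CreER was in the second line only. How many ESC lines stand behind each library is not given in the sources used here.

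IGF1 and IGF2 are secreted growth factors that signal through the receptor tyrosine kinase IGF1R and, with the insulin receptor INSR, through hybrid receptors. Most IGF outside cells is held by the binding proteins, which control how much ligand reaches the receptors. IGFBP1 to IGFBP6 bind IGFs with high affinity, while IGFBP7 binds them only weakly. In the embryo IGFs promote growth, and mesenchymal cells are a major source of IGF and of several binding proteins.

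Ino80, the targeted gene, had an FPKM of 8.90 in Diff–CONT and 10.3 in Diff–iKO (log2 ratio 0.21, 95% counting interval 0.11 to 0.31). A value over the whole gene does not check a deletion of part of it, since the rest of the transcript can still be counted, and values per exon were not analysed here. The samples were kept in the groups their labels give, and every direction below belongs to the library labelled Diff–iKO, called the iKO-labelled library. Low FPKM values rise in steps worth 1 fragment, which placed the libraries at about 30200000 fragments for Diff–CONT and 22300000 for Diff–iKO. Intervals rest on these fragments and cover counting error only, not the variation between cultures. A gene is called higher or lower at a fold change (FC) of at least 2, computed without a pseudocount, with an FPKM of at least 2 in at least 1 library. The study's methods give the same minimums for FC and FPKM but not in how many libraries FPKM must reach its minimum, nor whether a pseudocount was used. With a pseudocount of 0.1 the counts over all genes were 807 higher and 1002 lower, in place of 833 and 1038. In bulk RNA, fewer cells of a type and less RNA per cell cannot be told apart. Of 46 marker genes of 6 cell types, none was at 0 in either library. The pluripotency gene Pou5f1, at an FPKM of 60.8 in Diff–CONT and 247 in Diff–iKO, was detected in both cultures, and so were the mesenchymal genes Col3a1, at 386 and 187, and Dcn, at 73.2 and 33.9, and the cardiac troponin gene Tnnt2, which was lower, at 14.7 and 4.17.

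The genes of IGF signalling did not move as a block. Igf1, Igfbp4 and Igfbp5 were lower and Igfbp6 was higher past the cut-off, while Igf1r, Insr, Igfbp2, Igfbp3 and Igfbp7 stayed within 2-fold and Igfbp1 was under the FPKM minimum. Of the 9 genes above the minimum, 3 (33.3%) were lower, where 8.39% of all 12376 genes above it were lower, and 1 (11.1%) was higher, where 6.73% of all genes were higher. With so few genes these shares are a description only. The median log2 ratio was -0.61 over the 9 genes and -0.0046 over all genes above the minimum.

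The sequences just before the start sites of 4 of these genes are shown, since 3 of them passed the cut-off and the fourth, Igfbp2, was the most abundant member and the chromosomal neighbour of Igfbp5. Each run holds 120 bases of GRCm38 from RefSeq, 5′ to 3′ on the strand of the gene, and ends at the RefSeq start or, for Igfbp5, 19 bases before the RefSeq start so that no annotated exon is included. Capitals mark the motifs searched, which were the TATA box (TATAAA), the CCAAT box (CCAAT), the GC box (GGGCGG) and the motif of YY1 (GCCATNTT), a subunit of the INO80 complex, each on both strands.
Igfbp4 (chr11:99041124-99041243, plus strand, lower): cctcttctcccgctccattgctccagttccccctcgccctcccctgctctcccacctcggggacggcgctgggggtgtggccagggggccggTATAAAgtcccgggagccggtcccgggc
Igfbp5 (chr1:72874885-72875004, minus strand, lower): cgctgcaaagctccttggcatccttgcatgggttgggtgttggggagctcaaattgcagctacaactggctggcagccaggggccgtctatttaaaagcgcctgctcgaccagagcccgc
Igfbp6 (chr15:102144066-102144185, plus strand, higher): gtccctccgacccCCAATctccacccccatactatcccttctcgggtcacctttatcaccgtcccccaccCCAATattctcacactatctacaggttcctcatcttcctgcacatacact
Igfbp2 (chr1:72824360-72824479, plus strand, within 2-fold): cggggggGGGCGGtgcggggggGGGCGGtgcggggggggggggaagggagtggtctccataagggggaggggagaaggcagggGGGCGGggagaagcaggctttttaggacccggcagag

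Over the 250 bases before the RefSeq start, which were on hand for 9 of the 10 genes (all but Insr), the promoters did not share one motif. The TATA box letters were found in Igfbp4, from 28 to 23 bases before the start, and in Igfbp6 on the opposite strand, from 148 to 143 bases before it. They occur in 12.4% of all 32851 promoter windows of that length. The GC box letters were found in Igf1r, Igfbp2 and Igfbp7 (32.7% of all windows) and the CCAAT letters in Igf1 and Igfbp6 (33.8%). The YY1 letters, present in 3.91% of all windows, were in none of the 9. GC content ranged from 49.6% in Igfbp6 and 52.8% in Igf1 to 77.6% in Igf1r, beside a median of 52.4% over all windows. The RefSeq start lies 176 bases from the GENCODE start for Igfbp6, 570 for Igf1r and 2846 for Igf1, and the letters found belong to the RefSeq starts only. Igfbp2 has another RefSeq start, 884 bases from its GENCODE start, whose window had a GC content of 56.4% and none of the letters searched. These matches are letters in a window and not binding sites.

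**Figure D1:**
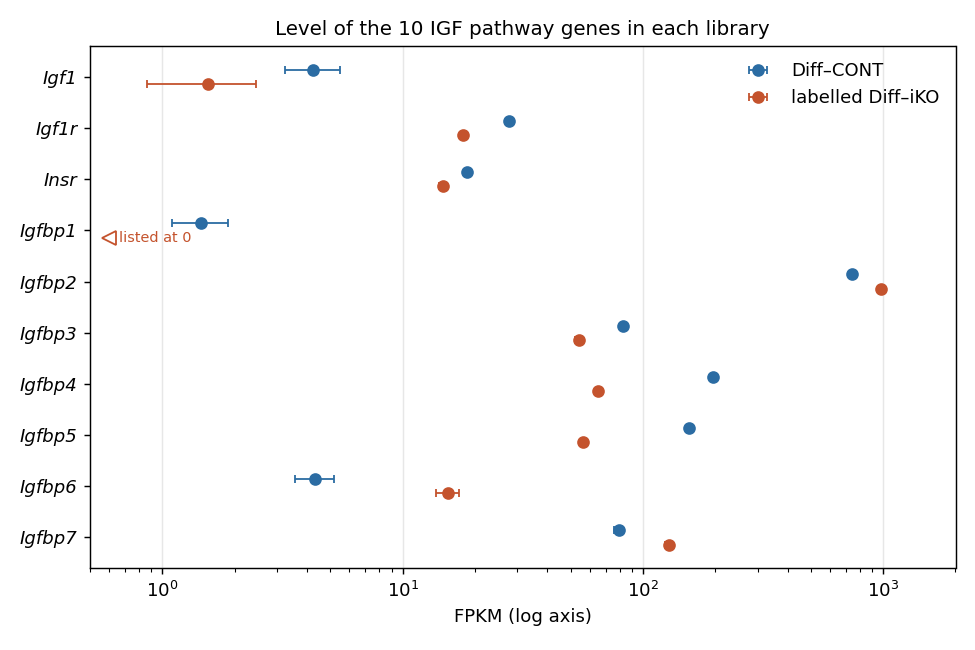
FPKM of the 10 genes in Diff–CONT (blue) and in the iKO-labelled library (red) on a log axis, 1 point per library, with 95% counting intervals as bars (many are smaller than the points). Igfbp2 is the highest in both libraries at 743 and 981, and Igfbp1 is listed at 0 in the iKO-labelled library.

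By FPKM, a level per transcript length, Igfbp2 stood far above the other members in both libraries. In Diff–CONT the order was Igfbp2, Igfbp4, Igfbp5, Igfbp3, Igfbp7, Igf1r, Insr, Igfbp6, Igf1 and Igfbp1. Of these neighbours, Igfbp3 and Igfbp7 (82.9 and 79.4) and Igfbp6 and Igf1 (4.32 and 4.22) had overlapping counting intervals. In the iKO-labelled library the order was Igfbp2, Igfbp7, Igfbp4, Igfbp5, Igfbp3, Igf1r, Igfbp6, Insr, Igf1 and Igfbp1. There Igfbp5 and Igfbp3 (56.1 and 54.3) and Igfbp6 and Insr (15.4 and 14.7) had overlapping intervals. Igfbp2 ranked 79 among the 24354 genes by FPKM in Diff–CONT and 61 in the iKO-labelled library, and Igfbp4 ranked 274 and 1198.

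Of the 2 IGF ligand genes, Igf1 was the less abundant, and both fell. Igf1, on chromosome 10 from 87858265 to 87937042 of GRCm38, was measured at 4.22 FPKM in Diff–CONT and 1.55 in the iKO-labelled library, a log2 ratio of -1.45. Its RefSeq transcripts run from 651 to 7052 nucleotides, so the fragments behind it are uncertain. With the shortest transcript they were 58 and 16, and the interval of -2.35 to -0.63 included the cut-off, while with the longest they were 874 and 237 and the interval of -1.66 to -1.24 did not. Igf1 was called only because Diff–CONT was above the FPKM minimum. Igf2, the fetal growth factor and an imprinted gene, had an FPKM of 1000.4 and 364 (log2 ratio -1.46, interval -1.51 to -1.41). Igf2 thus exceeded Igf1 by a factor of 237 in Diff–CONT and 235 in the iKO-labelled library. Ins1 was listed at 0 in both libraries, and Ins2 at 0.251 and 0.

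Both signalling receptor genes stayed within 2-fold. Igf1r, on chromosome 7 from 67952827 to 68233668, stood at 27.6 FPKM in Diff–CONT and 17.9 in the iKO-labelled library, a log2 ratio of -0.63 (interval -0.68 to -0.58). Insr, on chromosome 8 from 3122061 to 3279617, had values of 18.6 and 14.7 (log2 ratio -0.33, interval -0.40 to -0.27). Both ratios lay below 0 beyond counting error without reaching the cut-off. The FPKM of Igf1r was 1.49 times that of Insr in Diff–CONT and 1.21 times in the iKO-labelled library. Igf2r, whose product binds IGF2 and carries it to lysosomes, stood at 214 and 194 (log2 ratio -0.14, interval -0.16 to -0.13), so it was the most abundant receptor transcript by FPKM in both. The insulin receptor-related gene Insrr was near 0, at 0.183 and 0.0363. Igfals, whose product joins IGF and IGFBP3 in a ternary complex in blood, stood at 1.30 and 2.18 (log2 ratio 0.75, interval 0.34 to 1.15) and was within 2-fold.

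Of the binding proteins, Igfbp4 and Igfbp5 fell past the cut-off, and both rested on many fragments. Igfbp4, which encodes a binding protein that restrains IGF action and is cleaved by the protease PAPP-A, lies on chromosome 11 from 99041244 to 99054392. Its FPKM was 196 in Diff–CONT and 65.1 in the iKO-labelled library, a log2 ratio of -1.59 (interval -1.64 to -1.55) that rested on 21545 and 5310 fragments. Igfbp5, whose product binds to extracellular matrix and is made by muscle and connective tissue cells, lies on chromosome 1 from 72857932 to 72874884. Its FPKM was 156 and 56.1 (log2 ratio -1.47, interval -1.51 to -1.44). Only 3.29% of all genes above the minimum had a lower ratio than Igfbp4 and 3.93% a lower ratio than Igfbp5. The FPKM of Igfbp4 was 1.26 times that of Igfbp5 in Diff–CONT and 1.16 times in the iKO-labelled library. Igfbp3, the main carrier of IGFs in adult blood, had values of 82.9 and 54.3 (log2 ratio -0.61, interval -0.68 to -0.54) and did not reach the cut-off.

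Most of the listed markers of mesenchyme also had lower values in the iKO-labelled library. Of 10 mesenchyme and fibroblast genes, 6 were lower past the cut-off and none higher, with a median log2 ratio of -1.03. For this and the next lists, the shares over all genes above the minimum were 8.39% lower and 6.73% higher. Their summed FPKM was 1974 in Diff–CONT and 1720 in the iKO-labelled library, a sum that Col1a1, the 1 gene of the list with a ratio above 0, dominated. Lowest in ratio were Pdgfra, a receptor of mesenchymal progenitors (19.1 and 4.65), and the matrix proteoglycan gene Lum (46.3 and 8.00). Col1a1 (880 and 1199), Col1a2 (336 and 168), Pdgfrb (39.3 and 26.3) and Twist1 (11.2 and 6.26) stayed within 2-fold. Of 8 endothelial genes, 5 were lower, and 7 had a ratio below 0. Their summed FPKM of 76.8 and 82.3 was carried by Pecam1, the 1 gene that was higher, at 16.2 and 53.9. Of the cardiomyocyte genes only 2 of 6 reached the FPKM minimum, both were lower, and the sum was 28.4 and 7.84. The part of these cell types in the lower Igf1, Igfbp4 and Igfbp5 was not tested.

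Igfbp6 was the only member called higher. Its product prefers IGF2 over IGF1, and the gene lies on chromosome 15 from 102144362 to 102149511. Igfbp6 had an FPKM of 4.32 in Diff–CONT and 15.4 in the iKO-labelled library, a 3.56-fold difference and a log2 ratio of 1.83 (interval 1.52 to 2.15), from about 119 and 321 fragments. Of all genes above the minimum, 2.55% had a higher ratio. Igfbp7, which encodes a secreted matrix-associated protein and lies on chromosome 5 from 77349240 to 77408041, had values of 79.4 and 129 (log2 ratio 0.70, interval 0.61 to 0.78) and stayed under the cut-off. The end of Igfbp7 overlaps the end of Polr2b on the opposite strand, and the strand setting of the counting is not given. Igfbp2, which is typical of embryonic tissues, lies on chromosome 1 from 72824503 to 72852474 and had values of 743 and 981 (log2 ratio 0.40, interval 0.37 to 0.43). Markers of pluripotent cells were higher in the same library, with 5 of 6 past the cut-off and a summed FPKM of 138 and 475. Of 6 trophoblast genes above the minimum, 5 were higher (Cdx2 was lower), and the list summed to 18.8 and 43.6. Over all genes, 6.73% were higher and 8.39% lower. Tpbpa (1.07 and 5.63), Prl3d1 (0.484 and 6.19), Prl2c2 (0.221 and 2.06) and Ascl2 (1.00 and 2.03) reached the minimum only in the iKO-labelled library. Plac1, at 11.6 and 26.5, was above it in both. The part of pluripotent and trophoblast cells in the higher Igfbp6 was not tested.

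Igfbp1, on chromosome 11 from 7197782 to 7202546, encodes a binding protein of liver and decidua that insulin represses. It had an FPKM of 1.45 in Diff–CONT, about 58 fragments, and was listed at 0 in the iKO-labelled library. A count of 3 fragments of its 1525-nucleotide transcript would have given an FPKM of 0.0997 there. Igfbp1 lay under the FPKM minimum in both libraries and was not called. Visceral endoderm is a lineage that shares many transcripts with liver. Of 8 genes of this lineage, 7 were above the minimum and 6 of these were lower, beside 8.39% over all genes. The 8 genes had a summed FPKM of 213 and 13.7. Among them Afp was 45.9 and 0.422 and Ttr was 66.7 and 2.28, while the liver marker Alb was near 0 in both (0.0538 and 0.0480). The part of these cells in the Igfbp1 value was not tested.

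**Figure D2:**
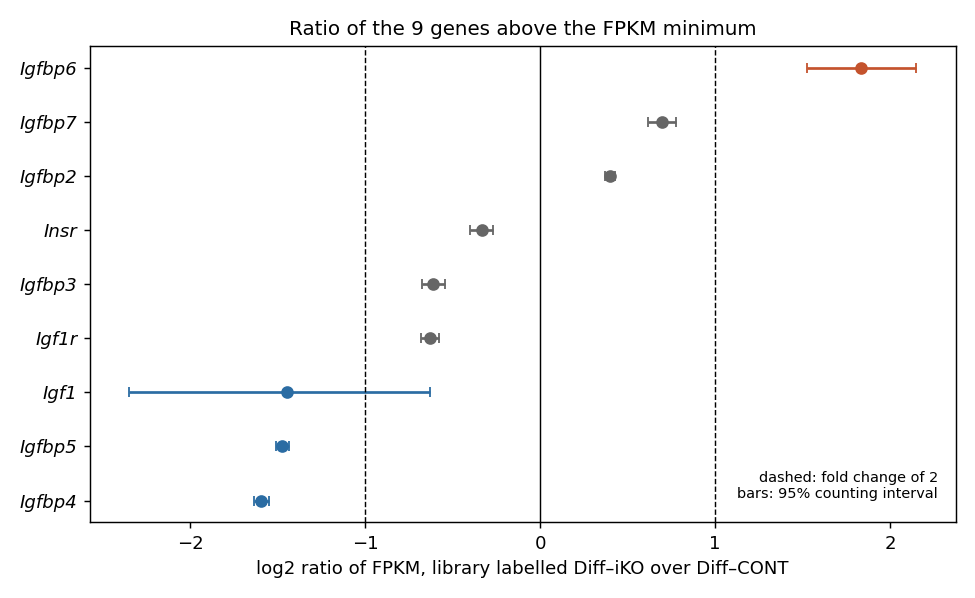
Log2 ratio of FPKM, library labelled Diff–iKO over Diff–CONT, for the 9 genes above the FPKM minimum, with 95% counting intervals as bars and dashed lines at a fold change of 2. Igf1, Igfbp4 and Igfbp5 (blue) lie below -1 and Igfbp6 (red) above 1, and only the interval of Igf1, drawn with its shortest transcript, crosses a dashed line.

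The binding protein genes include 2 pairs of chromosomal neighbours. Igfbp2 and Igfbp5 lie tail to tail on chromosome 1 with 5457 bases between them, and Igfbp5 was lower while Igfbp2 was higher within 2-fold. The ratio of Igfbp2 to Igfbp5 FPKM was 4.77 in Diff–CONT and 17.5 in the iKO-labelled library. Igfbp1 and Igfbp3 form the other pair, tail to tail on chromosome 11 with 3539 bases between them, and both had lower values in the iKO-labelled library. Ratios within a library do not depend on the scaling between libraries.

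The summed level of the binding protein transcripts was nearly level while its make-up shifted. The 7 genes had a summed FPKM of 1264 in Diff–CONT and 1300.5 in the iKO-labelled library, a log2 ratio of 0.041 (interval 0.02 to 0.06) whose sign turned, to -0.052, with both libraries brought to an equal FPKM total. Igfbp2 made up 58.8% of the sum in Diff–CONT and 75.4% in the iKO-labelled library. The share of Igfbp4 was 15.5% and 5.01%, that of Igfbp5 12.3% and 4.31%, and that of Igfbp3 6.56% and 4.18%. Igfbp7 made up 6.29% and 9.90%, Igfbp6 0.342% and 1.18%, and Igfbp1 0.115% and 0%. Without Igfbp2, the other genes summed to 520.3 and 319.7, a log2 ratio of -0.70. The 2 IGF ligands had a summed FPKM of 1005 and 365, and the high-affinity binders Igfbp1 to Igfbp6 one of 1184 and 1172. Beside the ligands, the transcripts of these binders were 1.18 times as abundant in Diff–CONT and 3.21 times in the iKO-labelled library. The shift in this ratio thus lay in the ligand sum. These are RNA levels, and protein was not measured.

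**Figure D3:**
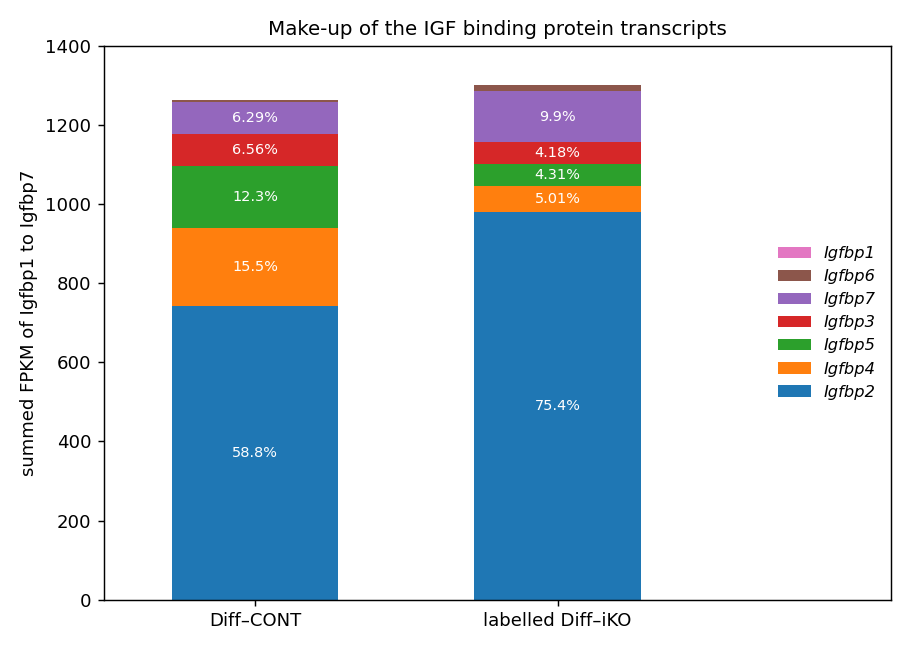
Summed FPKM of Igfbp1 to Igfbp7 in each library, 1 bar per library from 0, with each gene stacked and shares of at least 3% printed. The bars reach 1264 and 1300.5, and the Igfbp2 part grows from 58.8% to 75.4% while those of Igfbp4 and Igfbp5 shrink.

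Other genes of the pathway were taken from 5 lists by role, 54 genes in all, of which 47 were above the FPKM minimum. In these lists 2 genes were higher and 6 were lower, beside 6.73% higher and 8.39% lower over all genes, with a median log2 ratio of -0.01. The genes that were lower were Igf2, Stc2, Igfbpl1, Kazald1, Irs4 and Grb10, and those that were higher were Ctgf and Nov.

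Of 7 genes of the proteases that cleave binding proteins and of their inhibitors above the minimum, 1 was lower and none higher, beside 8.39% lower and 6.73% higher over all genes. Stc2, whose product stanniocalcin-2 inhibits PAPP-A, had an FPKM of 10.2 in Diff–CONT and 3.91 in the iKO-labelled library (log2 ratio -1.38, interval -1.56 to -1.20). Its relative Stc1 stood at 4.62 and 2.58 (-0.84), with an interval of -1.06 to -0.61 that reached the cut-off. Pappa itself, the gene of the protease that frees IGF from IGFBP4, was 5.12 and 5.56 (log2 ratio 0.12). By the mean FPKM of both libraries, the most abundant of the list were the serine protease gene Htra1, at 74.0 and 95.5, the membrane metalloprotease gene Adam9, at 38.6 and 65.2, and Adam12, at 6.95 and 8.93.

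Genes that share the IGFBP-like domain without being classical binding proteins went both ways. Of 11 genes, 2 of which (Htra1 and Htra3) are also in the protease list, 8 were above the minimum, 2 higher and 2 lower. Over all genes, 6.73% were higher and 8.39% lower. Ctgf, a matricellular growth regulator, rose from 139 to 385 FPKM (log2 ratio 1.47, interval 1.44 to 1.51), and its relative Nov from 0.673 to 2.19 (1.70, interval 1.24 to 2.19). The call of Nov ended with a pseudocount of 1 (log2 ratio 0.93) and where FPKM had to reach 5 in 1 library or 2 in both. Cyr61 of the same family was 173 and 267 (0.62) and did not reach the cut-off. Kazald1 fell from 7.14 to 2.39 (-1.58, interval -2.00 to -1.18) and Igfbpl1 from 7.53 to 3.19 (-1.24, with an interval whose upper end lay at the cut-off).

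Inside the cell, Irs4 and Grb10 among the adaptors were lower, and the kinase arm held no called gene. Of 10 receptor adaptors, 2 were lower and none higher, beside 8.39% lower and 6.73% higher over all genes. The median log2 ratio of the adaptors was -0.55. Irs4, an insulin receptor substrate, fell from an FPKM of 5.41 to 0.596 (-3.18, interval -3.53 to -2.85), the lowest ratio among the pathway genes above the minimum. With a pseudocount of 1 the log2 ratio of Irs4 was -2.00, and it was not called where FPKM had to reach 2 in both libraries. Grb10, an imprinted adaptor that restrains IGF1R and INSR signalling, fell from 245 to 102 (-1.27, interval -1.30 to -1.24). Irs1 (9.91 and 6.77) and Irs2 (21.8 and 12.6) had log2 ratios of -0.55 and -0.79 and were not called. Grb14 (3.33 and 1.73) was not called at -0.95, but it passed the cut-off, at -1.04, with libraries scaled to the same sum. The more abundant adaptors Shc1 and Grb2 stood at 51.3 and 34.8 and at 32.0 and 31.9. Of 21 genes of the PI3K, AKT and mTOR arm none was past the cut-off, beside the same shares over all genes. The median log2 ratio of this arm was -0.01. Akt1 was 94.9 and 100.2 (log2 ratio 0.078, and -0.015 with equal FPKM totals), Eif4ebp1, a translation repressor that mTOR inactivates, was 90.8 and 153, and Rheb, the GTPase that activates mTOR, was 41.7 and 46.7.

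**Figure D4:**
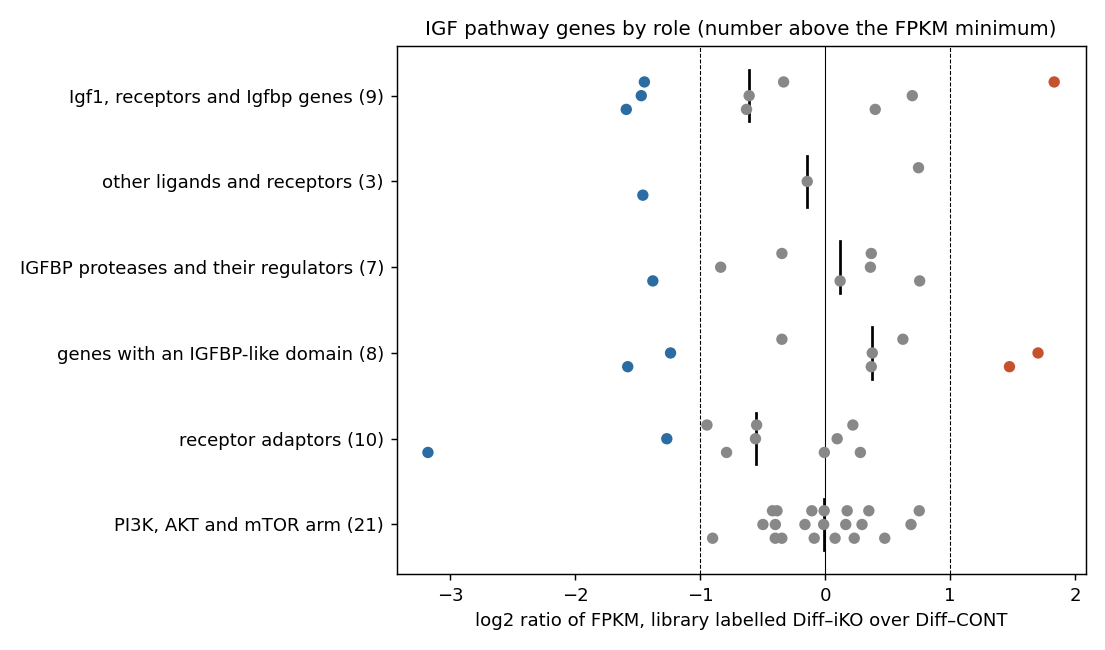
Log2 ratio of FPKM, library labelled Diff–iKO over Diff–CONT, for each gene above the FPKM minimum by role, 1 point per gene, with vertical bars at the list median, dashed lines at a fold change of 2, and genes past it in blue (lower) or red (higher). The 21 genes of the PI3K, AKT and mTOR arm all lie between the dashed lines, and Irs4 is the lowest point at -3.18.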

How the data were processed

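The authors deposited FPKM values for 24354 genes in 2 paired-end libraries, each from 1 µg of total RNA by a kit that keeps strand. The submitters' processing notes and the methods name STAR 2.7.9a, mm10 and Cuffquant and Cuffnorm of Cufflinks 2.2.1. The annotation, strand setting and read number are not given in the sources used here. Both value columns were assigned by name, and 0 others were present.

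From the FPKM values the log2 ratio was taken without a pseudocount. The library size in fragments was set so that low values, in 10584 single-transcript genes of 1000 nucleotides or more, came closest to whole multiples. Of these values, 86.3% in Diff–CONT and 85.5% in the iKO-labelled library lay within 0.2 of a whole number, against 40% by chance. A gene's fragments were computed from its shortest RefSeq transcript and are approximate. Intervals are 95% Clopper-Pearson (ratios), Poisson (levels) or a normal approximation (sum). The steps were tested on simulated data of single-transcript genes, built with the same model of steps that the fit assumes. That test does not check the model itself or genes with several transcripts. Positions are GENCODE vM21 (GRCm38, the mm10 assembly), promoters RefSeq GRCm38.p6.

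Members, gene lists and motifs were chosen with earlier results of these data known. All 10 members are named. Of the lists, all other ligands and receptors, the 3 genes of highest mean FPKM and every gene past the cut-off are named. Stc1, Pappa, Irs1, Irs2, Grb14 and the marker genes were picked for naming after their values were seen. Computation used numpy 2.4.6 with scipy 1.17.1, pandas 2.3.3 for tables and matplotlib 3.10.9 for plots, under Python 3.11.15. The alternatives tried were 3 scalings, 2 pseudocounts, 3 filters, 2 fold minimums, repeated symbols summed (0 symbols repeat) and other Igfbp sets.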

Additional observations from a re-analysis of the deposited data

How the results depend on the processing

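No paired analysis was possible because each condition had 1 library, and for the same reason no replicate could be left out. The 9 members with a ratio kept its sign in every scaling and with pseudocounts of 0.1 and 1, and Igf1 moved most, to -1.04 with a pseudocount of 1. The count of members called stayed at 1 higher and 3 lower under the other scalings and both pseudocounts, and Igf1 left the lower genes when FPKM had to reach 5 in 1 library or 2 in both. At a fold change of 1.5, 2 members were higher and 5 lower, and at 4, 0 were higher and 0 lower. For the other pathway genes these minimums gave 7 higher and 10 lower, and 0 higher and 1 lower. The 2 higher pathway genes became 1, without Nov, with a pseudocount of 1. The same held with FPKM of at least 5 in 1 library and with FPKM of at least 2 in both. The 6 lower ones became 5, without Irs4, with FPKM of at least 2 in both. They became 7, Grb14 being added, with libraries scaled to the same sum, and 9 without a filter on FPKM. Among the 60 members and pathway genes with a ratio, for which the scalings and pseudocounts were run, Akt1 alone changed sign, with the same sum. They were not run for single marker genes or Ino80. Over all genes, 702 were higher and 1226 lower with the same sum, 646 and 712 with a pseudocount of 1, 2040 and 2073 without a filter on FPKM, 566 and 671 with FPKM of at least 5, 488 and 569 with FPKM of at least 2 in both, 1846 and 2177 at a fold change of 1.5, and 278 and 237 at 4. The log2 ratio of the summed Igfbp FPKM was -0.052 with libraries scaled to the same sum, 0.017 with the median ratio set to 0 and -0.015 for Igfbp1 to Igfbp6 only. In that set the share of Igfbp2 was 62.8% in Diff–CONT and 83.7% in the iKO-labelled library. Filters and fold minimums change counts by their construction. Depth limits Igf1, Igfbp6 and Igfbp1, which rest on the fewest fragments.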
